A study of Mus musculus with 4 samples.

Results

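Mature neutrophils were selected from droplet single-cell RNA sequencing of mouse fetuses, in the libraries labelled E18.5. A cell was selected on 4 measured conditions. It had at least 300 detected genes. Retnlg and Mmp8 together made up at least 0.3% of its RNA molecules (counted as unique molecular identifiers, UMIs), S100a8 and S100a9 together at least 2%, and the early granule genes Elane, Mpo, Prtn3 and Ctsg together under 1%. The selection kept 2727 of the 33551 E18.5 cells, of 43351 cells in the series. Of these, 1041 came from the fetuses of the Cyp27a1-/- mother and 1686 from the fetuses of the Cyp27a1+/- mother. No cell of the E14.5 libraries passed, among 4843 cells with the null mother and 4957 cells with the heterozygous mother, which allows shares of up to 0.0619% with the null and 0.0605% with the heterozygous mother.

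All fetuses in the study were labelled Cyp27a1-/-, so both groups were labelled as lacking the mitochondrial sterol 27-hydroxylase. The groups differ in the mother, Cyp27a1-/- (null) or Cyp27a1+/- (heterozygous). Each group is 1 library, and the number of fetuses pooled in it is not given in the sources used here. One of them, from the heterozygous mother at E18.5, has a short name with a wild-type tag, and the genotype label was followed. The E18.5 libraries were labelled lung, but over all their cells the lung epithelial gene Nkx2-1 had 1 UMI with the null mother and 4 UMIs with the heterozygous mother. The liver gene Alb had 984995 UMIs with the null mother and 284409 UMIs with the heterozygous mother, so the neutrophils described here are not shown to be lung cells. The libraries share 164 cell barcodes, of which 6 belong to selected cells of the null-mother library and 10 to selected cells of the heterozygous-mother library. Selected cells with an Xist UMI and no Y-linked UMI numbered 141 with the null mother and 1 with the heterozygous mother, and cells with a Y-linked UMI and no Xist UMI numbered 179 with the null and 398 with the heterozygous mother. Maternal genotype, the sex of the fetuses and every other feature of a library cannot be told apart. With 1 library per group there is no replicate and no test, and the intervals given here cover counting error only.

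Neutrophils are short-lived phagocytes that kill microbes with granule proteins, an oxidative burst and extruded chromatin. Their granules are made in sequence, with azurophil granule proteins such as myeloperoxidase before specific granule proteins such as lactoferrin, and gelatinase after both. Transcripts of receptors for chemokines, growth factors and microbial products accumulate as division and granule synthesis cease. In the fetus, granulocytes are formed in the liver before the bone marrow takes over. CYP27A1 makes 27-hydroxycholesterol, a ligand of the LXR receptors and a step towards bile acids.

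Neutrophil markers outside the rule were above the background of the libraries. Csf3r, the receptor for granulocyte colony-stimulating factor (G-CSF), stood at 92.4 counts per 1000000 UMIs (CPM) with the null mother and 131 CPM with the heterozygous mother. After each cell was thinned to 1000 UMIs, 115 of 1019 null-mother neutrophils (11.3%, exact 95% interval 9.41 to 13.4%) and 248 of 1636 heterozygous-mother neutrophils (15.2%, 13.5 to 17.0%) held a Csf3r UMI. Thinning left out 22 shallower cells with the null and 50 with the heterozygous mother. In B-lineage cells of the same libraries, which serve as background, the shares were 0.645% (null mother) and 0.617% (heterozygous mother). Without thinning, 33.8% (null mother) and 34.99% (heterozygous mother) of the neutrophils held a UMI, against 7.06% (null mother) and 3.43% (heterozygous mother) of the B-lineage cells. Median depths were 3386 UMIs in neutrophils and 3598 UMIs in B-lineage cells with the null mother, and 2882 and 2854 UMIs with the heterozygous mother. Ly6g, a surface antigen of mature neutrophils, was found in 44.8% (null mother) and 41.8% (heterozygous mother) of thinned neutrophils, against 0.417% (null mother) and 0.247% (heterozygous mother) of B-lineage cells. Cxcr2, the receptor for CXC chemokines, was found in 22.1% (null mother) and 31.5% (heterozygous mother), against 0.645% (null mother) and 0.370% (heterozygous mother). Cells rich in S100a8 and S100a9 but below the Retnlg and Mmp8 bound also held them: Ly6g was found in 12.9% (null mother) and 16.5% (heterozygous mother) of these, Cxcr2 in 7.34% (null mother) and 9.63% (heterozygous mother) and Csf3r in 4.36% (null mother) and 4.86% (heterozygous mother). The markers thus set the selected cells apart from B-lineage cells, while the word mature rests on the rule.

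The promoters of 4 genes are shown for their sequence context. They are Ngp, a granule protein gene of the granule-rich cells, Retnlg, a resistin-like gene of the granule-poor cells, and Stfa1 and BC100530, the stefin (cysteine protease inhibitor) genes with the most UMIs. The windows run from 250 bases before to 50 bases after the RefSeq start on GRCm38.p6, 5' to 3' on the gene's strand, and capitals mark the core TTGCNNAA of C/EBP binding motifs on either strand. The Ngp window lies at chr9:110419558-110419857 on the plus strand, Retnlg at chr16:48872358-48872657 on the plus strand, Stfa1 at chr16:36276898-36277197 on the plus strand and BC100530 (RefSeq symbol Cstdc5) at chr16:36367521-36367820 on the minus strand.
Ngp: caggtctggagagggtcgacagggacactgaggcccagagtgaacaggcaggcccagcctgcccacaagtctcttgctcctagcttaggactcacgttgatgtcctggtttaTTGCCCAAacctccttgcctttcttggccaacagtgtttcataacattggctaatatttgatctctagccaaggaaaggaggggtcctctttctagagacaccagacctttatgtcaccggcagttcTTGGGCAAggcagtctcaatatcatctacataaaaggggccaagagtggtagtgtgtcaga
Retnlg: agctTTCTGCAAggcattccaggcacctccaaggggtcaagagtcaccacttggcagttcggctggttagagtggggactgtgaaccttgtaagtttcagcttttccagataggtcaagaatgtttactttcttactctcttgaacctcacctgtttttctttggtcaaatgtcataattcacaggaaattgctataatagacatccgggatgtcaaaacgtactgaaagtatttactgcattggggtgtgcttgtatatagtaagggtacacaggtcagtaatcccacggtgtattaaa
Stfa1: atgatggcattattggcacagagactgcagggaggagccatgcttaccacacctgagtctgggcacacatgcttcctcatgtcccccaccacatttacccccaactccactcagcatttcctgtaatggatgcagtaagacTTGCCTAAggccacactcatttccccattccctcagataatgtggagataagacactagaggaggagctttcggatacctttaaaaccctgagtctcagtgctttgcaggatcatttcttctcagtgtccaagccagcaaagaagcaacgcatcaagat
BC100530: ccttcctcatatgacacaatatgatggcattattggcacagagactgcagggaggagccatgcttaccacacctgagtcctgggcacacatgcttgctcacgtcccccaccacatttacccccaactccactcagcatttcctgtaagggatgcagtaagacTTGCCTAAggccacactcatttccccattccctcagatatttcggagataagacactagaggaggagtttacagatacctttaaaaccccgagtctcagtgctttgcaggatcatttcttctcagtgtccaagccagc

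The C/EBP core was present in 10.8% of 32851 promoter windows of this kind. Ngp held matches 138 and 11 bases before the start, Retnlg 246, Stfa1 109 and BC100530 88 bases before it. Of 22 windows searched for these cells, 8 held a match, the others being Ltf, Lcn2, Mmp8 and S100a9. The 14 without one were those of Camp, Chil3, Olfm4, S100a8, S100a6, Asprv1, Clec4d, Cxcr2, Csf3r, Stfa2, Stfa3, Stfa2l1, Gm5483 and Fpr1. The word GAGGAAGT, a PU.1 box, was found on either strand in 3.20% of all windows, among them those of S100a8, Mmp8 and Olfm4. The Stfa1 and BC100530 windows were identical at 222 of 279 bases (79.6%) when shifted by 21 bases without gaps. These matches describe the letters and were not tested as binding sites.

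The selected neutrophils were a smaller share of the null-mother library, and the rule genes set that share. They made up 6.30% (5.94 to 6.68%) of 16517 cells with the null mother and 9.90% (9.45 to 10.4%) of 17034 cells with the heterozygous mother. Among cells with under 10% haemoglobin the shares were 7.53% with the null and 14.1% with the heterozygous mother. Among all cells rich in S100a8 and S100a9 with low early granule genes they were 32.6% with the null and 44.9% with the heterozygous mother. The selected cells held a median of 3386 UMIs and 913 genes with the null mother, against 2882 UMIs and 829.5 genes with the heterozygous mother. The rule cuts a continuous range. Retnlg and Mmp8 made up 0.3 to 0.4% of UMIs in 100 selected cells with the null mother and 124 with the heterozygous mother, and 0.2 to 0.3% in 142 null-mother and 162 heterozygous-mother cells just outside. In Camp, Ltf and Ngp together, the cells just inside had a median of 7.75% of UMIs with the null and 7.87% with the heterozygous mother, and the cells just outside 8.45% with the null and 7.98% with the heterozygous mother.

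The most abundant transcripts included rule genes, stefins and granule proteins. S100a9 and S100a8, the calprotectin subunits that bind calcium and zinc, led in both libraries and, as rule genes, are given as a description: S100a9 was 13.8% (null mother) and 13.4% (heterozygous mother) of UMIs, and S100a8 7.93% (null mother) and 7.37% (heterozygous mother). Retnlg, also a rule gene, was 0.914% (null mother) and 1.32% (heterozygous mother) of UMIs. The 10 stefin genes counted together made up 10.6% with the null and 10.8% with the heterozygous mother. Stfa1 (chr16:36276951-36285373 in GENCODE, GRCm38) stood at 29853 CPM with the null and 29356 CPM with the heterozygous mother and BC100530 (chr16:36359382-36367748) at 24686 CPM with the null and 21986 CPM with the heterozygous mother. Stfa2 was lower with the null mother, at 8412 CPM against 10302 CPM with the heterozygous mother (0.82, 0.81 to 0.83). Counts of single stefin genes are uncertain, because copies share sequence: 29.3% of the 60-base windows in the last 400 bases of the Stfa1 transcript and 43.4% of those of BC100530 also occur in another member. Lcn2, which binds bacterial siderophores, was 1.81% (null mother) and 1.89% (heterozygous mother) of UMIs. Lyz2, the lysozyme that breaks bacterial cell walls, was 1.42% (null mother) and 1.33% (heterozygous mother). Tmsb4x, thymosin beta 4, which binds actin, was 1.44% (null mother) and 1.69% (heterozygous mother), and the nuclear RNA Malat1 0.892% (null mother) and 1.17% (heterozygous mother). Hbb-bs, a haemoglobin gene of red cells, was 0.722% (null mother) and 1.82% (heterozygous mother).

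Of 6205 genes with 50 or more UMIs in whichever library had the larger CPM, 587 (9.46%) were at least 1.5-fold higher with the null mother and 294 (4.74%) at least 1.5-fold lower. Their median log2 ratio, on CPM plus 10, was -0.0017. The gene lists below are read against these shares and this median. A member counts as past the fold at a ratio of at least 1.5 or at most its inverse, and list counts are descriptions. Lower levels with the null mother ran through the lists of receptors, adhesion molecules and cytokines. Higher levels ran through the lists of division, sterol synthesis and protein folding.

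**Figure D1:**
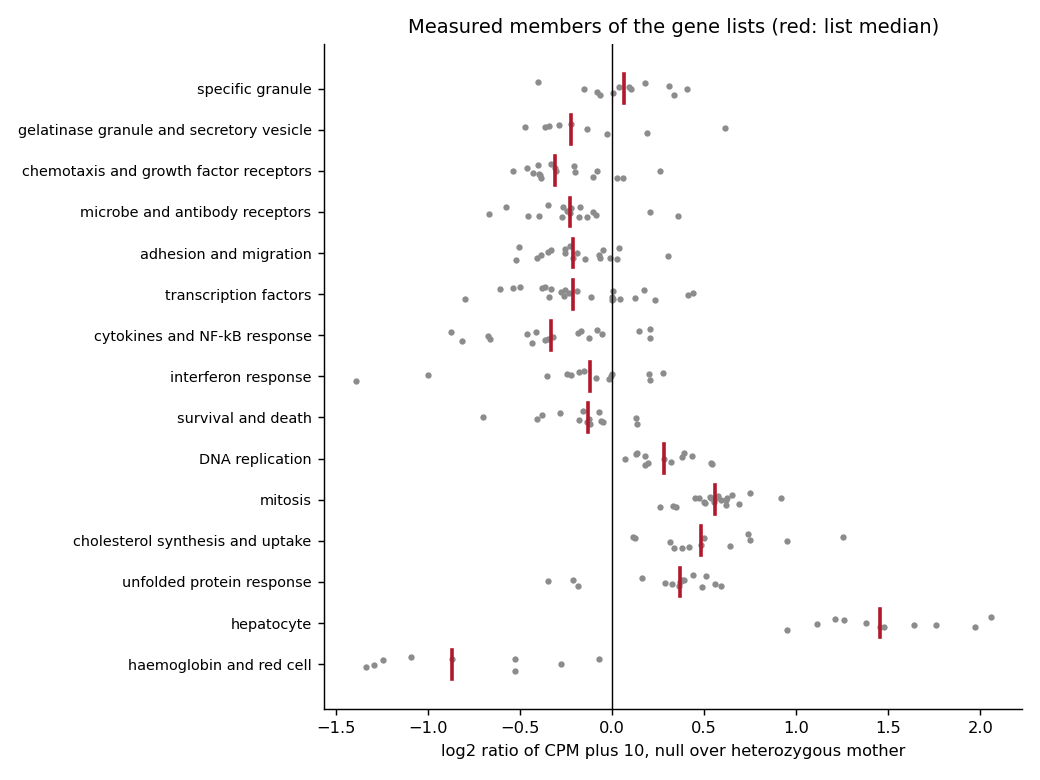
Log2 ratios on CPM plus 10 (x axis, null over heterozygous mother) of each measured member of 15 gene lists in the selected neutrophils, with the list median in red and the median of all measured genes as the black line. The chemotaxis receptor list has a median of -0.31 and the mitosis list 0.56, while hepatocyte genes stand at 1.46 and red cell genes at -0.87.

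Specific granule genes divided. Of 12 measured, 8 were higher and 4 lower with the null mother, 0 past the fold, with a median log2 ratio of 0.06. With the terciles of granule content described below at equal weight, 3 of 12 were higher. Camp, the precursor of the antimicrobial peptide CRAMP, stood at 18567 CPM with the null mother and 14004 CPM with the heterozygous mother (ratio 1.33, 1.31 to 1.34). Ltf, lactoferrin, which sequesters iron, stood at 8183 CPM with the null and 6489 CPM with the heterozygous mother (1.26, 1.24 to 1.28). Chil3, a chitinase-like lectin, was at 1359 CPM with the null and 1095 CPM with the heterozygous mother. Camp, Ltf and Ngp together, which order the cells below, were 5.57% of UMIs with the null and 4.60% with the heterozygous mother. Olfm4, olfactomedin 4, which marks a subset of neutrophils, went the other way at 2319 CPM with the null mother and 3067 CPM with the heterozygous mother (0.76, 0.74 to 0.77). Among 9 gelatinase granule and secretory vesicle genes, 2 were higher and 7 lower. Mmp9, gelatinase B, stood at 745 CPM with the null and 1039 CPM with the heterozygous mother (0.72, 0.69 to 0.75), and Adam8, a surface protease, at 162 CPM with the null and 212 CPM with the heterozygous mother. Fcnb, a ficolin lectin that is made early, was past the fold in the other direction at 189 CPM with the null and 120 CPM with the heterozygous mother (1.58, 1.43 to 1.74). Ms4a3, a gene of granulocyte progenitors, stood at 28.9 CPM with the null and 13.2 CPM with the heterozygous mother, beside 285 CPM with the null and 168 CPM with the heterozygous mother in B-lineage cells. Of thinned B-lineage cells, 12.1% (null mother) and 6.17% (heterozygous mother) held an Elane UMI, so they are no clean background for Ms4a3.

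Receptor genes were lower with the null mother in most cases. Of 17 measured chemotaxis and growth factor receptors, 14 were lower and 3 higher, 1 of them at least 1.5-fold lower, with a median of -0.31. Cxcr2 (chr1:74153989-74161246) stood at 216 CPM with the null mother and 318 CPM with the heterozygous mother (0.68, 0.63 to 0.73), beside 9.01 CPM with the null and 6.83 CPM with the heterozygous mother in B-lineage cells. Csf3r had a ratio of 0.70 (0.63 to 0.79). Il1r2, the decoy receptor for interleukin-1, was at 83.8 CPM with the null and 116 CPM with the heterozygous mother, and Fpr2, a formyl peptide receptor, at 153 CPM with the null and 205 CPM with the heterozygous mother. Fpr1, its relative, was at 166 CPM with the null and 163 CPM with the heterozygous mother, a ratio whose interval of 0.93 to 1.12 spans 1. C5ar1, the receptor for complement C5a, was higher at 168 CPM with the null mother against 139 CPM with the heterozygous mother (1.21, 1.10 to 1.34).

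Receptors for microbes and antibodies were lower in 15 of 17 cases, 3 of them past the fold, with a median of -0.23. Clec4d, a C-type lectin for mycobacterial glycolipid, stood at 92.2 CPM with the null mother and 152 CPM with the heterozygous mother (0.61, 0.54 to 0.68). Lilrb4a, an inhibitory receptor, was at 37.5 CPM with the null and 60.8 CPM with the heterozygous mother (0.62, 0.51 to 0.74). Pirb, another inhibitory receptor, was at 331 CPM with the null and 438 CPM with the heterozygous mother. Trem1, which amplifies inflammatory signals, was higher at 157 CPM with the null mother against 120 CPM with the heterozygous mother (1.30, 1.18 to 1.45). Adhesion and migration genes were lower in 16 of 19 cases, 2 past the fold, with a median of -0.21. Selplg, the ligand of P-selectin, was at 121 CPM with the null and 163 CPM with the heterozygous mother. Ly6g was at 678 CPM with the null and 701 CPM with the heterozygous mother, with an interval of 0.92 to 1.01 for the ratio.

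Transcription factor genes were mixed, with 10 of 24 higher, 14 lower and a median of -0.21. Junb, an AP-1 subunit induced by growth factors, stood at 640 CPM with the null mother and 1120 CPM with the heterozygous mother (0.57, 0.55 to 0.60). Mxd1, which opposes Myc, was at 408 CPM with the null and 628 CPM with the heterozygous mother (0.65, 0.62 to 0.69). Zfp36, which degrades cytokine mRNAs, was at 276 CPM with the null and 406 CPM with the heterozygous mother. Cebpb, which drives emergency granulopoiesis, was at 361 CPM with the null and 516 CPM with the heterozygous mother. Cebpe, which is needed for specific granules, was higher at 655 CPM with the null mother against 556 CPM with the heterozygous mother (1.18, 1.12 to 1.24). Spi1, encoding PU.1, was at 624 CPM with the null and 606 CPM with the heterozygous mother, with an interval of 0.98 to 1.08 for the ratio.

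In the list of cytokines and NF-kB response genes, 15 of 18 were lower with the null mother, 5 of them past the fold, and the median was -0.33. Socs3, which restrains signalling by the G-CSF receptor, stood at 9.58 CPM with the null mother and 25.9 CPM with the heterozygous mother (0.37, 0.26 to 0.51). Ccl6, a CC chemokine, was at 54.7 CPM with the null and 104 CPM with the heterozygous mother (0.53, 0.46 to 0.61), and Pim1, a survival kinase, at 53.7 CPM with the null and 90.8 CPM with the heterozygous mother. Ccl6 turned round among cells with a Y-linked and no Xist UMI, where its ratio was 1.48 and that of Socs3 0.68. Thbs1, thrombospondin 1, was at 853 CPM with the null and 1157 CPM with the heterozygous mother (0.74, 0.71 to 0.77). Il1b, interleukin-1 beta, had 70 UMIs with the null and 89 UMIs with the heterozygous mother, and the interval of its ratio, 0.68 to 1.30, spans 1. Within the low tercile described below, without cells of low S100 RNA, Il1b was higher with the null mother (1.98, 1.33 to 2.92). That rests on 50 UMIs with the null and 60 UMIs with the heterozygous mother. The Il1b ratios in the middle and high terciles were 2.79 and 1.74, on at most 8 UMIs per library, with intervals that span 1.

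Of 14 measured interferon response genes, 10 were lower and 4 higher, but with S100a8 and S100a9 at 10% or more and terciles at equal weight 9 of 13 were higher. Rsad2, viperin, an antiviral enzyme, had 49 UMIs with the null mother and 251 UMIs with the heterozygous mother, or 9.78 CPM with the null and 41.9 CPM with the heterozygous mother (0.23, 0.17 to 0.32). It was found in 0.981% (null mother) and 2.14% (heterozygous mother) of thinned neutrophils, beside 1.21% (null mother) and 1.11% (heterozygous mother) of B-lineage cells, so the null-mother share is within the background. Its ratio was 0.37 with S100a8 and S100a9 at 10% or more of UMIs. Ifitm6, of the membrane proteins that block viral entry, was at 3171 CPM with the null and 4058 CPM with the heterozygous mother (0.78, 0.77 to 0.80), and Ifitm3 of the same family at 806 CPM with the null and 815 CPM with the heterozygous mother.

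The oxidative burst and trap genes were close to even. Of 6 NADPH oxidase genes, 4 were lower and 2 higher with a median of -0.04, and Cybb, the membrane subunit of that oxidase, was at 935 CPM with the null mother and 870 CPM with the heterozygous mother. Padi4, the enzyme that citrullinates histones in extracellular traps, had a ratio of 1.00 (0.90 to 1.12). Survival genes were lower in 12 of 14 cases with a median of -0.13. Mcl1, on which neutrophil survival depends, was at 354 CPM with the null and 463 CPM with the heterozygous mother (0.76, 0.72 to 0.81), and Txnip, which limits glucose uptake, at 117 CPM with the null and 196 CPM with the heterozygous mother. Glycolysis genes were near even, with a median of 0.02 over 22 genes, while the glucose transporter Slc2a3 was at 183 CPM with the null and 318 CPM with the heterozygous mother (0.58, 0.53 to 0.62).

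**Figure D2:**
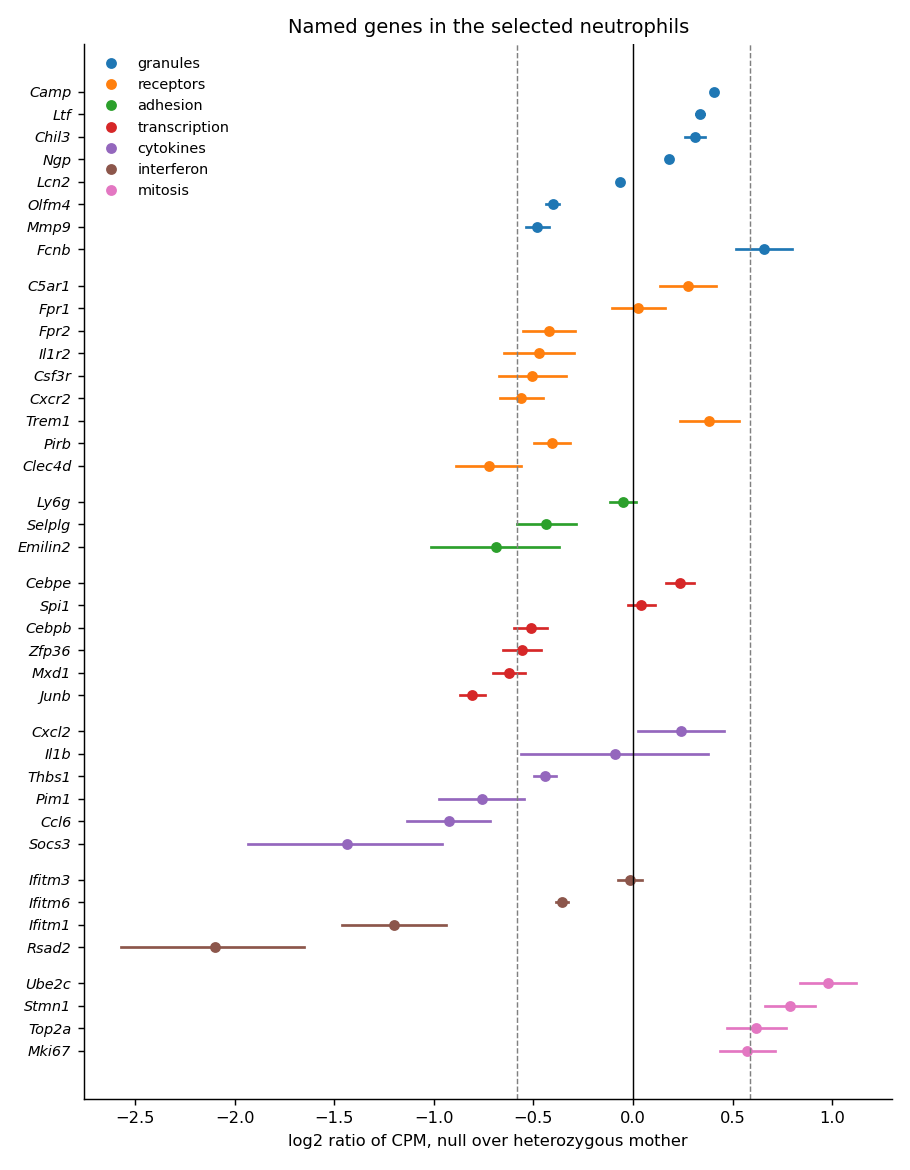
Named genes in the selected neutrophils: points are the log2 ratio of CPM (x axis, null over heterozygous mother), lines the exact 95% counting intervals and dashed lines the 1.5-fold bounds. Camp, Ltf and Chil3 lie to the right of 0, Cxcr2, Csf3r, Mxd1 and Junb to the left, and Rsad2 stands farthest left of the genes drawn at a ratio of 0.23.

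Division genes were higher with the null mother. All 20 measured mitosis genes were higher, 14 of them past the fold, with a median of 0.56, and so were all 13 measured DNA replication genes, 4 of them past the fold, with a median of 0.28. Among cells with a Y-linked and no Xist UMI, 2 of 6 measured replication genes were higher, with a median of -0.02, beside -0.06 over all genes measured there. Ube2c, which tags cyclins for destruction, stood at 218 CPM with the null mother and 111 CPM with the heterozygous mother (1.97, 1.78 to 2.17). Mki67, the proliferation antigen, was at 193 CPM with the null and 130 CPM with the heterozygous mother (1.49, 1.35 to 1.64). B-lineage cells held 643 CPM with the null and 554 CPM with the heterozygous mother of Ube2c. Mki67 was found in 29.2% (null mother) and 26.0% (heterozygous mother) of thinned B-lineage cells, so they are no background for division genes. Thinned cells with a Ube2c UMI were 8.93% (null mother) and 4.46% (heterozygous mother) of neutrophils, beside 28.7% (null mother) and 22.9% (heterozygous mother) of B-lineage cells. The 5% of cells with the most mitosis UMIs held 48.5% (null mother) and 72.9% (heterozygous mother) of them. Among cells with haemoglobin under 1% and no UMI of Alb, Cd79a, C1qa or Pf4 (194 null-mother and 784 heterozygous-mother cells), 3 of 10 measured mitosis genes were higher, with a median of -0.05 and a ratio of 0.80 for Mki67. The median over all 2759 genes measured in that subset was lower, at -0.15, so the mitosis list still stood above it. With S100a8 and S100a9 at 10% or more of UMIs, 19 of 19 were higher, and with haemoglobin under 1% and hepatocyte genes under 0.2%, 20 of 20.

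The cells spanned a wide range in granule transcripts. Camp, Ltf and Ngp together were between 0 and 37.7% of a cell's UMIs with the null mother and between 0 and 20.8% with the heterozygous mother, with medians of 5.54% with the null and 3.72% with the heterozygous mother. The 2727 cells were ordered by that share and cut into 3 terciles over both libraries, at 1.74% and 6.47%. The low tercile held 285 null-mother cells (27.4%, 24.7 to 30.2%) and 624 heterozygous-mother cells (37.0%, 34.7 to 39.4%). The high tercile held 417 null-mother cells (40.1%, 37.1 to 43.1%) and 492 heterozygous-mother cells (29.2%, 27.0 to 31.4%), so null-mother cells were more often granule-rich. Across cells, the granule share had a Spearman correlation with the Retnlg and Mmp8 share of -0.59 in the null-mother library and -0.62 in the heterozygous-mother library, over 1041 and 1686 cells that share a library and a denominator. Its correlation with the UMI count was 0.46 with the null and 0.49 with the heterozygous mother. The rule cuts on the Retnlg and Mmp8 share, whose median was 1.09% with the null and 1.55% with the heterozygous mother. The tercile shares are therefore not independent of the rule, and they were not recomputed at other Retnlg and Mmp8 bounds. Terciles cut a range and are not cell types.

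**Figure D3:**
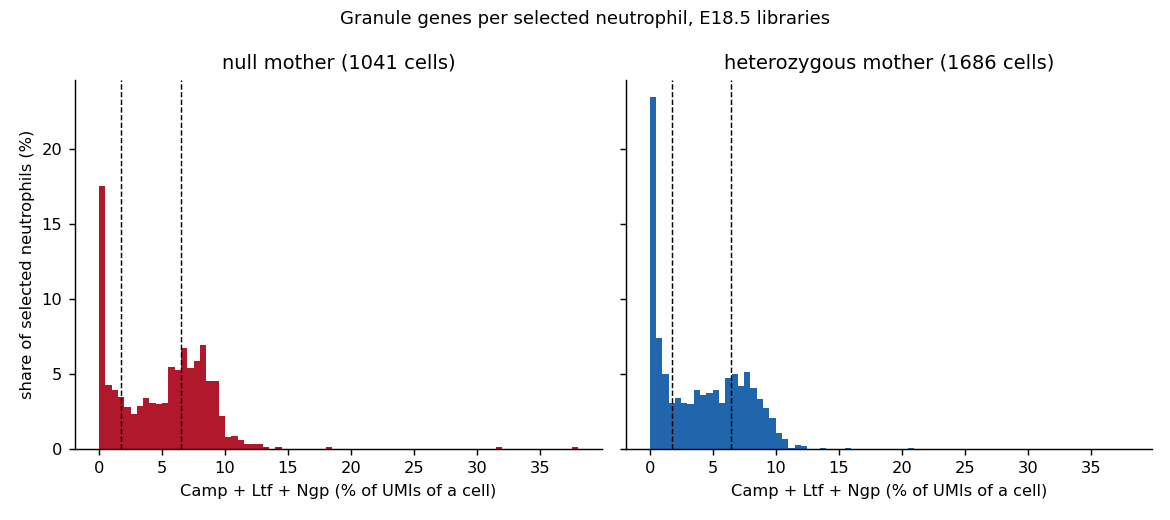
Share of selected neutrophils (y axis, %) by the summed Camp, Ltf and Ngp share of their UMIs (x axis, %), for 1041 null-mother cells on the left and 1686 heterozygous-mother cells on the right, with the tercile bounds at 1.74% and 6.47% as dashed lines. Both libraries have a peak near 0 and a broad hump above 5%, and the cells above the upper bound are 40.1% with the null mother and 29.2% with the heterozygous mother.

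A few cells with little S100 RNA weighed heavily in the low tercile. Cells with S100a8 and S100a9 under 10% of UMIs numbered 78 with the null mother and 106 with the heterozygous mother, with median UMI counts of 7950.5 (null mother) and 5779 (heterozygous mother). In the low tercile they held 52.4% of all UMIs with the null and 34.5% with the heterozygous mother. Levels per tercile are therefore given without them, over 963 null-mother and 1580 heterozygous-mother cells, of which 226 (23.5%, null mother) and 532 (33.7%, heterozygous mother) were in the low tercile. In both libraries the low tercile then had the higher levels of receptors and signalling genes and the high tercile those of specific granule genes. Of 12 specific granule genes, 10 were lower in the low than in the high tercile in both libraries, but Camp, Ltf and Ngp among the 12 order the cells. Other granule genes did not follow. Of 9 gelatinase granule and secretory vesicle genes, 6 were higher and 3 lower in the low tercile in both, and of 10 azurophil granule genes 5 were higher and 4 lower. Clec4d stood at 466, 89.3 and 31.4 CPM in the low, middle and high terciles with the null mother and at 536, 86.8 and 25.8 CPM with the heterozygous mother. Il1b stood at 105, 5.49 and 2.45 CPM with the null mother and at 53.1, 1.97 and 1.41 CPM with the heterozygous mother. S100a6, a calcium-binding protein, stood at 5782, 2057 and 1040 CPM with the null mother and at 5489, 2026 and 962 CPM with the heterozygous mother. Chil3 ran the other way at 120, 1066 and 2055 CPM with the null mother and 228, 883 and 2045 CPM with the heterozygous mother. Of 17 chemotaxis receptors, 15 were higher in the low than in the high tercile in both libraries, as were 14 of 17 microbe receptors, beside 2662 of 6205 measured genes. Of 20 mitosis genes, 19 were lower in the low tercile in both, beside 1790 of the measured genes. With the low-S100 cells kept the mitosis direction turned, and 13 of 20 genes were higher and 1 lower in the low tercile in both libraries. With them, 11 of 17 chemotaxis receptors and 9 of 17 microbe receptors were higher in the low tercile in both, beside 3705 of 6205 measured genes.

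Within terciles, still without the low-S100 cells, several genes had a ratio on the same side of 1 in each. For ratios printed without an interval, counting error is not stated here. The chemotaxis receptor list had medians of -0.19, -0.04 and -0.10 in the low, middle and high terciles, against -0.29 over the same cells. The microbe receptor list had -0.07, -0.13 and -0.04, against -0.20 over the same cells. With the low-S100 cells kept, the low tercile stood farther from 0, with medians of -0.53, -0.16 and -0.11 for the chemotaxis receptors and -0.41, -0.16 and -0.05 for the microbe receptors. Clec4d had ratios of 0.87 (0.74 to 1.01), 1.03 (0.81 to 1.30) and 1.22 (0.85 to 1.75). Each interval spans 1, so without the low-S100 cells the lower level of Clec4d did not hold within any tercile beyond counting error. With those cells kept, its ratios were 0.64 (0.55 to 0.74), 1.02 (0.81 to 1.28) and 1.22 (0.85 to 1.75), lower beyond counting error in the low tercile only. Cxcr2 had ratios of 0.69, 0.79 and 0.86, and Mxd1 of 0.63, 0.72 and 0.73. Junb had ratios of 0.80, 0.64 and 0.60, and Slc2a3 of 0.59, 0.66 and 0.69. Olfm4 had ratios of 0.78, 0.74 and 0.74, and Ifitm6 of 0.80, 0.75 and 0.72. C5ar1 was higher with the null mother in each tercile at 1.28, 1.16 and 1.48, and so was Cxcl2, a chemokine that draws neutrophils, at 1.42, 1.93 and 2.85. Over all terciles the Cxcl2 ratio turned to 0.82 in cells with haemoglobin under 1% and hepatocyte genes under 0.2%. Camp, used to order the cells, had ratios of 1.12, 1.17 and 1.09. The mitosis list had medians of 0.12, 0.66 and 0.61, with 12, 20 and 20 of 20 genes higher. Ube2c stood at 88.2, 207 and 206 CPM with the null mother and at 58.4, 83.4 and 105 CPM with the heterozygous mother.

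**Figure D4:**
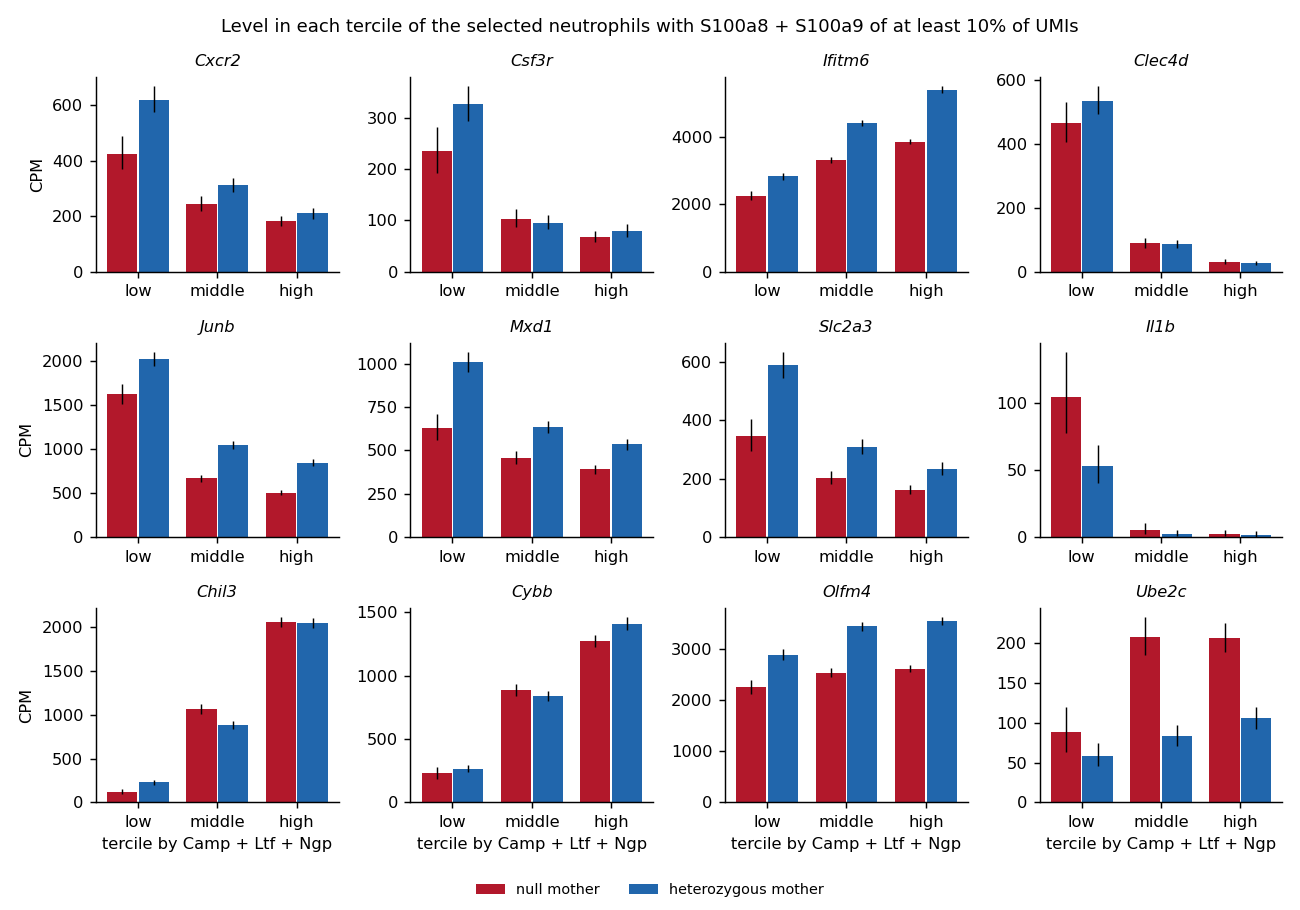
CPM (y axes) of 12 genes in the low, middle and high terciles of selected neutrophils ordered by Camp, Ltf and Ngp, without cells under 10% S100a8 and S100a9. Bars in red, to the left, are the null mother and bars in blue the heterozygous mother, and lines are exact 95% counting intervals. Cxcr2, Mxd1 and Slc2a3 are highest in the low tercile and lower with the null mother in each tercile, and Chil3 and Cybb are highest in the high tercile.

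Beside the most alike cells, those rich in S100a8 and S100a9 but with Retnlg and Mmp8 under 0.3% (2148 null-mother and 2069 heterozygous-mother cells), the selected neutrophils differed in the genes given here. Genes that vary with the rule genes are selected with them, so this is a description. S100a6 stood at 1799 CPM in neutrophils and 191 CPM in alike cells with the null mother, and at 2227 CPM in neutrophils and 210 CPM in alike cells with the heterozygous mother. Mmp9 stood at 745 CPM in neutrophils and 86.2 CPM in alike cells with the null mother, and at 1039 CPM in neutrophils and 111 CPM in alike cells with the heterozygous mother. Asprv1, a protease known from skin, stood at 889 CPM in neutrophils and 122 CPM in alike cells with the null mother, and at 1219 CPM in neutrophils and 134 CPM in alike cells with the heterozygous mother. Clec4d, Slc7a11, Fpr1, Cxcl2, Adam8, Slpi and Bst1 completed the 10 genes with the largest log2 ratio in the library where it was smaller. Csf3r stood at 92.4 CPM in neutrophils and 35.05 CPM in alike cells with the null mother, and at 131 CPM in neutrophils and 39.5 CPM in alike cells with the heterozygous mother. In the other direction, Fcnb was at 189 CPM in neutrophils and 935 CPM in alike cells with the null mother, and at 120 CPM in neutrophils and 1060 CPM in alike cells with the heterozygous mother. Mki67 was at 193 CPM in neutrophils and 471 CPM in alike cells with the null mother, and at 130 CPM in neutrophils and 499 CPM in alike cells with the heterozygous mother. Stfa1 was at 29853 CPM in neutrophils and 28937 CPM in alike cells with the null mother, and at 29356 CPM in neutrophils and 28913 CPM in alike cells with the heterozygous mother. Stfa2 was at 8412 CPM in neutrophils and 3146 CPM in alike cells with the null mother, and at 10302 CPM in neutrophils and 3636 CPM in alike cells with the heterozygous mother, so the stefin copies differed in how far they separated these cells.

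Sterol genes, the pathway closest to the maternal genotype, were measured at low levels. Cyp27a1 itself stood at 22.6 CPM with the null mother and 22.9 CPM with the heterozygous mother, in fetuses labelled null, and at 42.0 CPM with the null and 52.7 CPM with the heterozygous mother in B-lineage cells. Whether the counted end of the transcript lies outside the deleted part is not given in the sources used here, so this level does not check the genotype. All 13 measured genes of cholesterol synthesis and uptake were higher with the null mother, 8 past the fold, with a median of 0.49. Fdps, which makes farnesyl diphosphate, had 205 UMIs with the null and 68 UMIs with the heterozygous mother, or 40.9 CPM with the null and 11.4 CPM with the heterozygous mother, with an interval of 2.73 to 4.81 for the ratio, which was 1.38 after thinning to 1000 UMIs. Hmgcs1, HMG-CoA synthase, had 194 UMIs with the null and 91 UMIs with the heterozygous mother (2.55, 1.98 to 3.31), but its ratio was 0.94 in cells with haemoglobin under 1% and hepatocyte genes under 0.2%. The whole list summed to 339 CPM with the null and 198 CPM with the heterozygous mother in neutrophils, beside 533 CPM with the null and 330 CPM with the heterozygous mother in B-lineage cells of the same libraries. In neutrophils with S100a8 and S100a9 at 10% or more of UMIs, 6 of 9 measured sterol genes were higher, with a median of 0.26. The lipid carrier Fabp5 stood at 997 CPM with the null and 400 CPM with the heterozygous mother (2.49, 2.37 to 2.62) in neutrophils, beside 1204 CPM with the null and 618 CPM with the heterozygous mother in B-lineage cells, and its ratio was 1.12 with haemoglobin under 1% and hepatocyte genes under 0.2%. Unfolded protein response genes were higher in 12 of 15 cases with a median of 0.37, but after thinning to 1000 UMIs 2 of 7 measured ones were higher, with a median of -0.07. The median over all genes measured after thinning was -0.09, so the list was then close to all genes.

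RNA of other cells moved with the library. The hepatocyte list was 0.869% (null mother) and 0.286% (heterozygous mother) of neutrophil UMIs, and 1.06% (null mother) and 0.225% (heterozygous mother) of B-lineage UMIs. All 11 measured members were at least 1.5-fold higher with the null mother. With sex-linked marker, haemoglobin, mitochondrial and predicted genes left out, the 10 largest log2 ratios included those of Ttr, Apoa2, Afp, Dbi, Fgb, Gsta3, Fgg and Aqp8. Red cell genes were 1.62% (null mother) and 3.85% (heterozygous mother) of neutrophil UMIs, and 2.15% (null mother) and 3.40% (heterozygous mother) of B-lineage UMIs. Per cell, the medians were 0.169% (null mother) and 0.0565% (heterozygous mother) for the hepatocyte list and 0.103% (null mother) and 0.282% (heterozygous mother) for the red cell list. Most of the summed UMIs lay in few cells. The 5% of neutrophils with the most held 85.3% (null mother) and 82.9% (heterozygous mother) of hepatocyte UMIs, and 94.1% (null mother) and 89.3% (heterozygous mother) of red cell UMIs. Cells with 10% or more haemoglobin numbered 33 of 1041 with the null mother and 99 of 1686 with the heterozygous mother. With the same genes left out, the 10 smallest log2 ratios began with Ctrb1, chymotrypsinogen of the pancreas, with 0 UMIs with the null mother and 1244 UMIs with the heterozygous mother, of which 1 cell held 94.5%. Pnliprp1, Prss2, Try5 and Cela3b of the pancreas, Gzma and Ccl5 of lymphocytes, and Fabp4, Bpgm and Cd74 completed them. The macrophage, monocyte, B cell, T and NK cell, eosinophil, megakaryocyte, progenitor and endothelial lists had a per-cell median of 0 in both libraries. The lung list of 8 genes had none measured, with Nkx2-1, Sftpc, Scgb1a1 and Tcf21 at 0 UMIs in both groups of neutrophils. The part of this RNA in the differences above was not tested beyond the subsets given beside them.

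**Figure D5:**
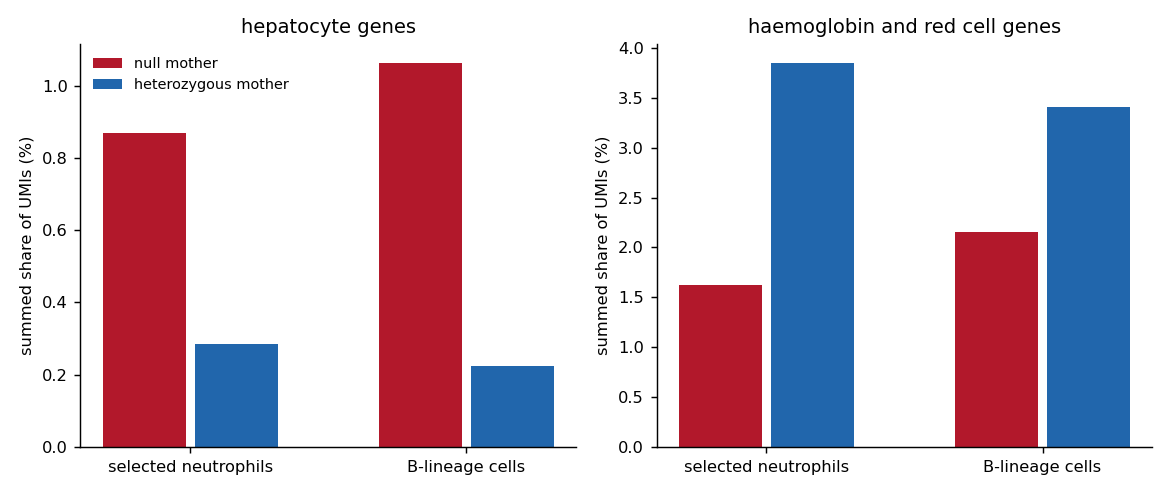
Summed share of UMIs (y axes, %) in hepatocyte genes (left) and in haemoglobin and red cell genes (right) for selected neutrophils and for B-lineage cells, with the null mother in red to the left and the heterozygous mother in blue. Hepatocyte genes are higher and red cell genes lower with the null mother in both cell classes.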

How the data were processed

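The deposited values are whole-number UMI counts, which the authors gave as 1 matrix of 31053 genes. Cell Ranger 3.0.0, Seurat 4.3.0 and the build mm10 were used, per the submitters' processing notes. No cell held under 500 UMIs. E18.5 libraries held 118054232 UMIs with the null mother and 97894048 with the heterozygous mother, and selected cells 5010454 with the null and 5988057 with the heterozygous mother. Counts were summed per library and scaled to CPM in Python 3.11.15 with pandas 2.3.3 and numpy 2.4.6. Ratios are null over heterozygous mother, with exact conditional 95% intervals from scipy 1.17.1. Log2 ratios of lists use CPM plus 10. Shares have exact Clopper-Pearson intervals, and the limit for 0 cells is 3 counts. No doublet caller was run, and levels of other cells' RNA are given instead. B-lineage cells held at least 2 UMIs of Cd79a and Cd79b and failed the selection. Figures were drawn with matplotlib 3.10.9, and the ratio script was tested on simulated data.

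Members and lists were chosen with earlier results of these data known. The naming rule covered rule genes and markers, up to 4 members per list by size of difference, the 10 largest and 10 smallest log2 ratios outside sex-linked, haemoglobin, mitochondrial and predicted genes, the 15 most abundant genes, the 10 highest against alike cells, and other list members where described. Some genes under this rule are not reported here. The 6 alternatives that leave out cells of low S100 RNA, carry-over, high depth or shared barcodes, or that use terciles without the low-S100 cells, were chosen after seeing the data. Sequences and promoters are from RefSeq and gene positions from GENCODE M21.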

Additional observations from a re-analysis of the deposited data

How the results depend on the processing

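The count of genes past 1.5-fold higher (587) and lower (294) depended on the minimum: 1548 and 904 at 10 UMIs, and 163 and 97 at 200 UMIs. The count higher was 119 after thinning, 235 with Retnlg and Mmp8 at 0.6% or more and also 235 without cells above 10000 UMIs, 25 with haemoglobin under 1% and no UMI of Alb, Cd79a, C1qa or Pf4 (called low carry-over cells here, 194 null-mother and 784 heterozygous-mother), 226 among cells with a Y-linked and no Xist UMI, 386 with haemoglobin under 1% and hepatocyte genes under 0.2%, and 390 with S100a8 and S100a9 at 10% or more. The low carry-over cells left 2759 measured genes. Having no UMI of a gene depends on depth, and this filter acted unequally on the libraries. An Alb UMI was held by 78.6% of null-mother and 44.4% of heterozygous-mother neutrophils without thinning. With the null mother, neutrophils were 4.63% of cells at a Retnlg and Mmp8 bound of 0.6%, 8.49% at 0.1%, 5.62% with 600 genes or more, and 7.53% and 32.6% of the low-haemoglobin and the S100-rich cells. With the heterozygous mother these were 8.05%, 12.3%, 8.59%, 14.1% and 44.9%. The low tercile held 23.5% with the null and 33.7% with the heterozygous mother with S100a8 and S100a9 at 10% or more, and 23.1% with the null and 32.4% with the heterozygous mother with 600 genes or more, where the high tercile held 31.8% with the heterozygous mother.

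Percents of measured list members higher with the null mother changed as follows, with log2 medians in parentheses. The median over all measured genes also moved with the setting. It was -0.09 after thinning, -0.15 in low carry-over cells, -0.06 in Y-linked cells and -0.03 with a minimum of 200 UMIs. With Retnlg and Mmp8 at 0.6% or more it was -0.05, and with low haemoglobin and hepatocyte genes -0.05. With S100a8 and S100a9 at 10% or more it was -0.03, and -0.02 with terciles at equal weight as well. Survival genes were at 0% with a minimum of 200 UMIs, in low carry-over cells (-0.48) and in Y-linked cells. Protein folding genes were at 28.6% after thinning (-0.07) and 25% in low carry-over cells (-0.12). Replication genes were at 62.5% with Retnlg and Mmp8 at 0.6% or more and 33.3% in Y-linked cells (-0.02). In low carry-over cells mitosis genes were at 30% (-0.05) and the 1 sterol gene measured at 0% (-0.10). Sterol genes were at 66.7% with low haemoglobin and hepatocyte genes (0.25), and at 66.7% with S100a8 and S100a9 at 10% or more (0.26). Specific granule genes were at 25% with terciles at equal weight (-0.08) and 41.7% with that and S100a8 and S100a9 at 10% or more (-0.05). Interferon genes were at 7.69% with low haemoglobin and hepatocyte genes and 69.2% with terciles at equal weight and S100a8 and S100a9 at 10% or more (0.04). Of the named genes past 1.5-fold, Ccl6 reversed in Y-linked cells (ratio 1.48) and Hmgcs1 with low haemoglobin and hepatocyte genes (0.94). Of those within 1.5-fold whose interval excludes 1, Mki67 (0.80 in low carry-over cells), Cxcl2 (0.82 with low haemoglobin and hepatocyte genes), Cybb, Ngp, Stfa1, S100a6 and S100a9 changed direction under some alternative. The causes were not tested, and subsets hold fewer cells and genes. No paired analysis was possible because each group is 1 library, and no library could be left out.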
